A study of Schizosaccharomyces pombe with 12 samples.

Results

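The genes described here encode the proteins of the mitochondrial ribosome of the fission yeast Schizosaccharomyces pombe. They were taken by symbol: a probe set was included when the array annotation gave it a name made of mrp, mrpl, mrps, rsm, img or mrx followed by a number. This gave 48 probe sets for 48 genes, out of 4880 S. pombe probe sets on the array, and all 48 genes were found in RefSeq. The array annotation gave a single gene symbol to 2865 of the 4880 probe sets and several to 19. The rule could not match the others. By gene name 28 were assigned to the large subunit and 19 to the small subunit. The remaining 1, rsm1, encodes by annotation an mRNA export factor whose symbol only resembles the others, so it is described apart. RefSeq holds 17 further genes with names of this form, which were not analysed here.

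Total RNA was hybridized to 12 Affymetrix Yeast Genome 2.0 arrays, 3 for each of 4 groups labelled as biological replicates. The groups were set3Δ cells treated with LatA, set3Δ cells treated with DMSO, wild-type cells treated with LatA and wild-type cells treated with DMSO. LatA (latrunculin A) sequesters actin monomers, and DMSO is its solvent. Every culture grew in YES medium and was treated for 3 hours at 30°C, with LatA at 0.5 mM by the sample labels and at the same number in µM by the study's text. All strains carried ura4-D18, leu1-32 and ade6-216, and in set3Δ the set3 gene, which encodes a subunit of a histone deacetylase complex, was replaced with KanMX. Nothing in the labels says whether more than 1 set3Δ isolate was used, and any mating type difference between the strains is taken up with the genotype comparisons.

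Mitochondria descend from bacteria and keep a ribosome of their own, in which the RNAs are encoded by the mitochondrial genome and nearly all the proteins by nuclear genes. This ribosome makes a handful of proteins, mainly core subunits of the respiratory chain and the ATP synthase, which join nuclear-encoded partners in the inner membrane. Some of its proteins have bacterial counterparts (names such as uL15m or bS18m below), and others were gained in the mitochondrial lineage (names such as mS37), so the parts must be made on cytosolic ribosomes, imported and assembled in matched amounts.

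The deposited values are log2 intensities set so that each probe set has a median of 0 over the 12 arrays. They therefore show how a gene differed between arrays and hold no level that could be compared between genes. The set3 probe set read from -2.59 to -1.97 in the set3Δ arrays and from 1.97 to 2.31 in the wild-type arrays, as the labels require. Arrays also differed in a general stress score, the mean of the genes induced in the core environmental stress response (CESR) minus the mean of those it represses. The score was 0.45 to 0.70 in set3Δ with LatA, 0.24 to 0.45 in wild type with LatA and -1.52 to -0.74 in wild type with DMSO. The set3Δ DMSO arrays were split. Replicate 2, at -1.06, lay within the wild-type DMSO range. Replicates 1 and 3, at 0.012 and -0.044, lay between that range and the LatA arrays. Median differences of the 48 genes that use the set3Δ DMSO group are therefore also given without each of its replicates. Other medians that use this group rest on all its replicates, and their dependence on single arrays was not examined. Only 1 of the 48 genes, mrpl7, is on the CESR lists, among the repressed genes.

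The 48 genes varied little between arrays. Their values spanned a median of 0.41 log2 units over the 12 arrays, against 0.56 for all probe sets. Averaged over the 48 genes, the array value was -0.047 ± 0.047 in set3Δ with LatA, 0.0051 ± 0.075 in set3Δ with DMSO, -0.018 ± 0.047 in wild type with LatA and 0.073 ± 0.024 in wild type with DMSO (SD, n = 3 arrays each). The wild-type DMSO group had the highest mean and the smallest SD, with 33 to 35 of the 48 genes above 0 on each array. The set3Δ DMSO arrays spread most, with 41, 22 and 12 genes above 0 in replicates 1, 2 and 3. The medians of all probe sets on these arrays ran in the same order, at 0.035, 0.0046 and -0.018. Replicate 1, at a mean of 0.085 over the 48 genes, was as high as the wild-type DMSO arrays. In set3Δ with LatA 10 to 27 genes were above 0, and in wild type with LatA 11 to 30. The median of all probe sets ran from -0.025 to 0.026 on the set3Δ LatA arrays. On the wild-type arrays it ran from -0.030 to 0.0064 with LatA and from 0.0033 to 0.030 with DMSO.

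**Figure D1:**
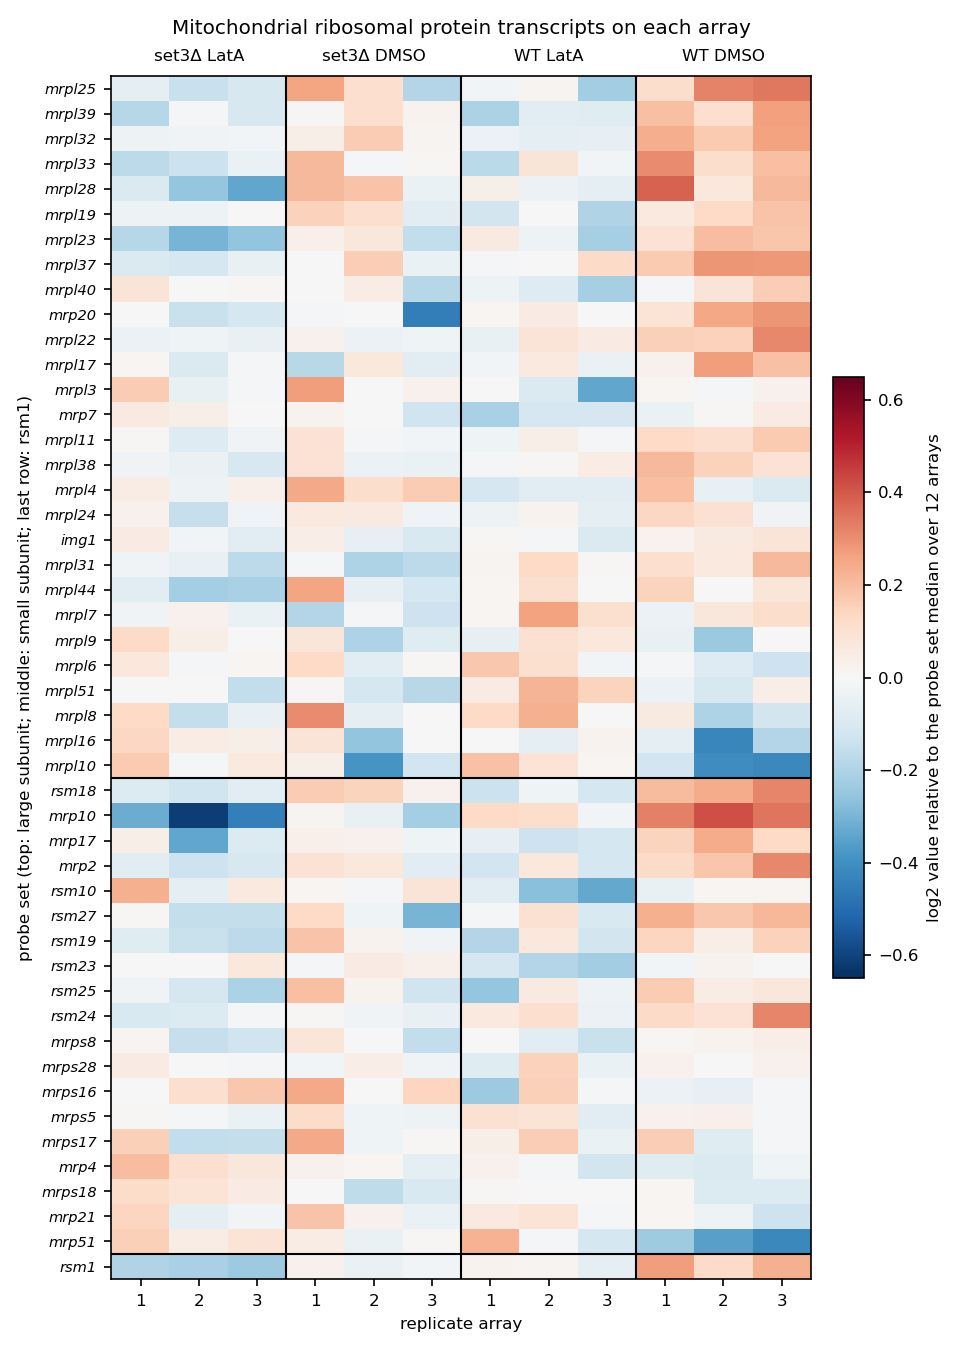
Heat map of the 48 genes (rows, grouped into the large subunit, the small subunit and rsm1) on the 12 arrays (columns, by group), with colour giving the log2 value relative to the median of each probe set. Most rows are warmest on average in the 3 wild-type DMSO arrays, while mrpl10, mrpl16 and mrp51 are coolest there and mrp10 is coolest in set3Δ with LatA.

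The first comparison asked how wild-type cells changed these transcripts when treated with LatA. Most of these transcripts had slightly lower values with LatA than with DMSO. Of the 48 genes 34 had a negative log2 difference, and the median was -0.14 against -0.034 over all probe sets. By limma with Benjamini-Hochberg adjustment over all 4880 probe sets, 12 genes fell and 2 rose at an adjusted p below 0.05, which is 14 of 48. Calls of this kind took in 43% of all probe sets, 25.5% lower and 17.5% higher. The share called lower, 12 of 48 with rsm1 included, was near that background. The share called higher, 2 of 48, was below it. None of the 48 passed when a fold change above 1.5 was also required, against 14.5% of all probe sets. Unadjusted p-values were below 0.05 for 2610 of all 4880 probe sets and for 25 of the 48. The largest change was 1.33-fold, and for 46 of the 48 genes the 95% confidence interval lay wholly within 1.5-fold in either direction.

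The subunits had similar medians, -0.14 for the 28 large-subunit genes (5 fell and 1 rose) and -0.13 for the 19 small-subunit genes (6 fell and 1 rose). rsm18, which encodes the counterpart of bacterial protein bS18, read -0.14, -0.029 and -0.11 in wild type with LatA, against 0.20, 0.24 and 0.32 with DMSO. All 3 LatA arrays were below all 3 DMSO arrays, and the transcript fell by 0.35 on the log2 scale (SE 0.0589, limma adjusted p = 0.00710). In the large subunit, mrpl32 (bL32m, whose budding yeast relative is matured by an inner membrane protease) read -0.038, -0.061 and -0.054 with LatA, against 0.24, 0.17 and 0.26 with DMSO. The LatA arrays lay within a narrow band well under the DMSO arrays, and mrpl32 fell by 0.28 (SE 0.0505, limma adjusted p = 0.00853). mrpl39 (bL33m) read -0.21, -0.068 and -0.077 with LatA, against 0.20, 0.11 and 0.27 with DMSO, again with no overlap, and fell by 0.31 (limma adjusted p = 0.0153). These 3 were the members whose call held whichever of the 6 arrays was left out and in each of the 5 other fits tried.

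The other genes that fell were mrpl25 (mL59), by 0.34, mrp10 (mS37), by 0.29, mrp17 (bS6m), by 0.27, mrp2 (uS14m), by 0.26, mrpl19 (uL11m, at the base of the stalk that recruits translation factors), by 0.23, rsm27 (mS33) and mrpl37 (mL54), each by 0.21, and rsm23 (mS29, a GTP-binding protein), by 0.18. The non-ribosomal rsm1 fell by 0.22. mrp10 and mrp17 lost their calls only without DMSO replicate 2, at limma adjusted p-values of 0.0543 and 0.0529. mrpl25 is an example of a less stable call: it read -0.017, 0.017 and -0.23 with LatA, against 0.11, 0.32 and 0.34 with DMSO, with a limma adjusted p of 0.0332 that was 0.105 without DMSO replicate 2 and stayed below 0.05 only without DMSO replicate 1. Its 3 LatA arrays did not overlap its 3 DMSO arrays. The calls of mrp2, mrpl19, mrpl37 and rsm23 held in 2 of the 6 fits that left out 1 array, and those of mrpl25, rsm27 and rsm1 in 1. In all, 5 to 8 genes were called when any array but DMSO replicate 1 was left out, and 17 without that one. Of the 48 genes 24 had all LatA arrays below all DMSO arrays and 4 the reverse, against 35.3% and 24.8% of all probe sets (28 of 48 in all, against 60.2%).

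A few mitoribosomal transcripts went the other way. mrpl10 (uL15m, a large-subunit protein) read 0.19, 0.089 and 0.014 with LatA, against -0.13, -0.40 and -0.42 with DMSO. DMSO replicate 1 was the highest of its group but still under every LatA array, and mrpl10 rose by 0.41 (SE 0.0977, limma adjusted p = 0.0181). mrp51 (bS1m, a small-subunit protein that in budding yeast acts on the leaders of mitochondrial mRNAs) read 0.23, -0.0096 and -0.11 with LatA, against -0.23, -0.35 and -0.42 with DMSO, and rose by 0.37 (SE 0.102, limma adjusted p = 0.0299). For both, the call was lost without DMSO replicate 2 or 3 or LatA replicate 1 or 2, with adjusted p-values up to 0.0638 for mrpl10 and 0.088 for mrp51. mrpl16 (uL16m), mrpl8 (bL17m), mrpl51 (mL43) and mrpl6 (uL6m) had positive differences of 0.21, 0.21, 0.17 and 0.16 that did not pass the test.

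The genes were also counted by descent. Of the 13 genes for proteins gained in the mitochondrial lineage, 12 had a negative difference in wild type with LatA, with a median of -0.17. By the test 5 of them fell, against 25.5% of all probe sets. Of the 34 with a bacterial counterpart, 21 had a negative difference, with a median of -0.099. Both called increases were in the bacterial class. The 2 classes were not compared by a test.

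**Figure D2:**
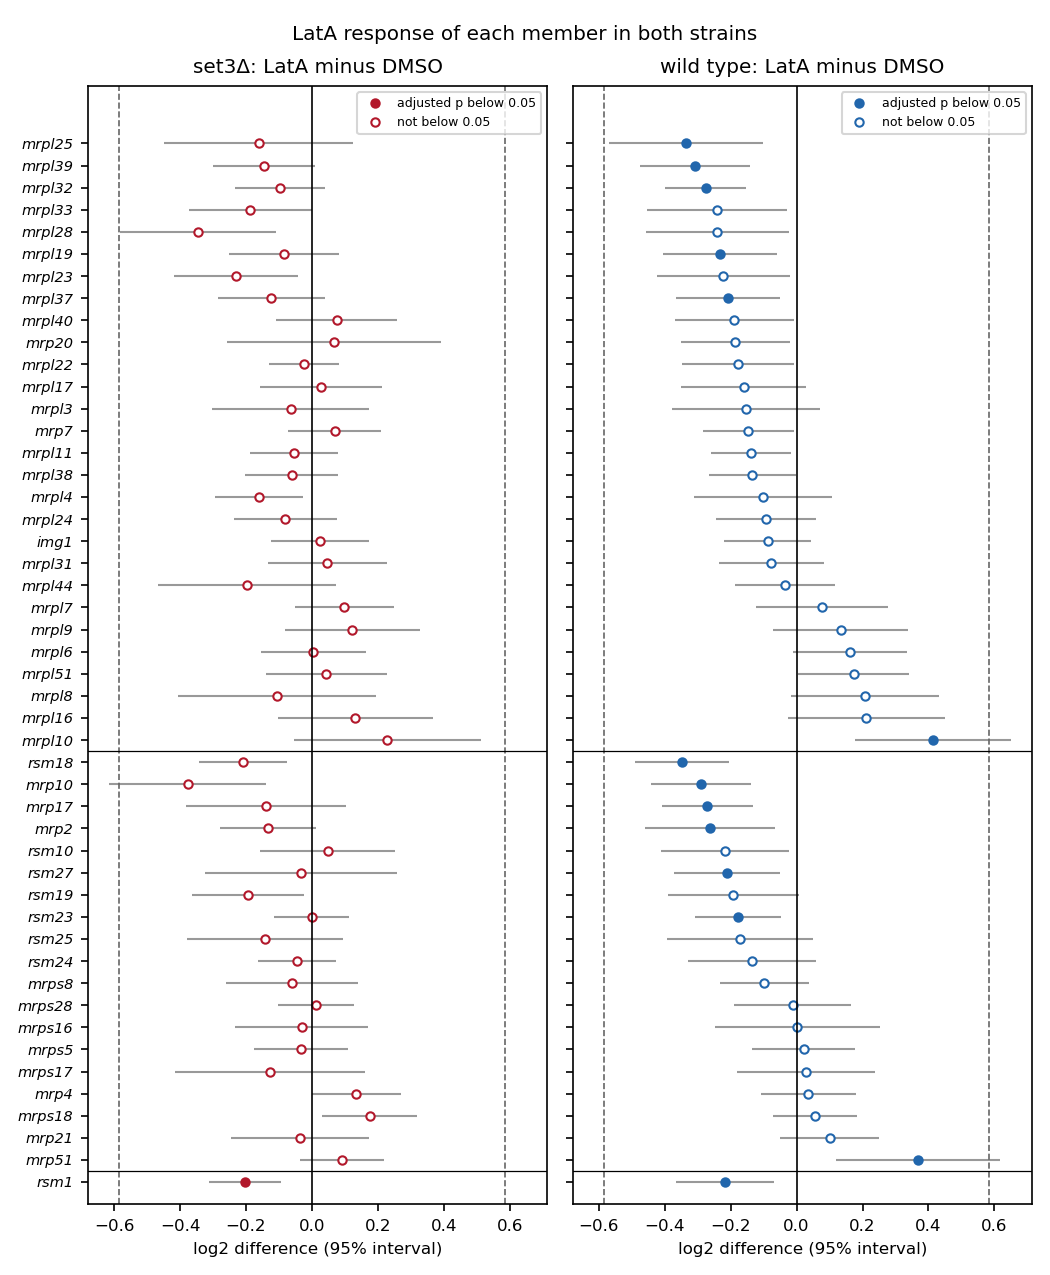
Log2 difference between LatA and DMSO for each of the 48 genes, in set3Δ (left) and wild type (right), with limma 95% intervals; filled points have an adjusted p below 0.05 and the dashed lines mark a fold change of 1.5. Filled points number 1 in set3Δ (rsm1) and 14 in wild type, and no point lies beyond a dashed line.

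The same treatment was then followed in set3Δ. Here the 48 genes had a median difference of -0.050 against -0.020 over all probe sets, with 31 negative. Only rsm1, the non-ribosomal gene, passed the limma test at an adjusted p below 0.05, so none of the 47 mitoribosomal genes did, in a comparison where 12.4% of all probe sets passed (6% lower and 6.43% higher). With the fold limit of 1.5 no member passed, against 3.61% of all probe sets. Unadjusted p-values were below 0.05 for 1805 of all 4880 probe sets and for 8 of the 48. The groups failed to overlap for 12 genes in the lower direction and 2 in the higher, against 25.2% and 21.5% of all probe sets. Without set3Δ DMSO replicate 2, whose stress score lay within the wild-type DMSO range, the median was -0.054 and no gene passed. Without set3Δ DMSO replicate 1 the median was -0.013 with no gene passing. Without set3Δ DMSO replicate 3 it was -0.086 and 4 genes fell, namely mrp10, mrpl28, mrpl23 and rsm18.

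The 2 lowest differences in set3Δ were in genes of mitochondrial origin. mrp10 read -0.33, -0.61 and -0.45 with LatA, against 0.017, -0.048 and -0.22 with DMSO, a difference of -0.38 (SE 0.0975, limma adjusted p = 0.0569). mrpl28 (mL40) read -0.096, -0.25 and -0.34 with LatA, against 0.21, 0.19 and -0.043 with DMSO, a difference of -0.35 (SE 0.0966, limma adjusted p = 0.0660). In neither gene did the groups overlap, and the adjusted p of mrp10 was 0.0143 when all 12 arrays shared 1 estimate of the spread. mrpl23 (uL13m), rsm18, mrpl44 (mL53) and rsm1 made up the rest of the 6 lowest, with differences of -0.23, -0.21, -0.20 and -0.20. The rsm1 call, at a limma adjusted p of 0.0423, was lost whichever array was left out. At the other end mrpl10 (0.23), mrps18 (uS11m, 0.18), mrp4 (uS2m, 0.13), mrpl16 (0.13), mrpl9 (uL3m, 0.12) and mrpl7 (uL5m, 0.099) had the 6 highest differences. For mrps18 and mrp4, small-subunit proteins, every LatA array was above every DMSO array.

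Signs were shared between the strains for 35 of the 48 genes: 26 were lower with LatA in both and 9 higher in both. The 9, which ran against the rest, were mrp4, mrp51, mrpl6, mrpl7, mrpl9, mrpl10, mrpl16, mrpl51 and mrps18, and all but mrpl51 have a bacterial counterpart. Of the remainder 8 were lower in wild type and higher in set3Δ, and 5 the reverse. The absolute difference was larger in wild type for 35 of the 48 genes. Its median was 0.18 in wild type and 0.094 in set3Δ. Over all probe sets it was also larger in wild type, at 0.23 against 0.15. A limma fit of all 12 arrays tested the difference between the responses directly, set3Δ minus wild type. No member passed it, against 0.0615% of all probe sets (0.041% lower and 0.0205% higher). Unadjusted p-values were below 0.05 for 986 of all 4880 probe sets and for 6 of the 48. The median over the 48 was 0.064 against 0.028 over all probe sets. Without set3Δ DMSO replicate 2 the median was 0.052 and again no gene passed. It was 0.11 without replicate 1 of that group and 0.034 without replicate 3, with no gene passing in either fit.

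The genes with the highest such differences were rsm10 (uS10m, 0.26), mrpl40 (uL24m, near the exit of the peptide tunnel, 0.26), mrp20 (uL23m, also at the tunnel exit, 0.25), mrp7 (bL27m, 0.22), mrpl17 (mL46, 0.19) and mrpl32 (0.18). The smallest limma adjusted p was 0.171, for mrp7, with a 95% interval of 0.049 to 0.38. At the low end were mrpl8 (-0.31), mrp51 (-0.28, interval -0.54 to -0.015), mrpl10 (-0.18), mrpl44 (-0.16), mrpl6 (-0.16) and mrps17 (uS17m, -0.15). The intervals of 46 of the 48 genes lay within 1.5-fold either way. For mrp51 the LatA arrays read 0.15, 0.046 and 0.090 in set3Δ and 0.23, -0.0096 and -0.11 in wild type, while the DMSO arrays read 0.048, -0.042 and 0.0096 in set3Δ and -0.23, -0.35 and -0.42 in wild type. The 3 wild-type DMSO arrays lay below all the others.

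The third question was whether set3Δ and wild-type cells differed from each other. In LatA treated cells the 48 genes had a median difference of -0.031, set3Δ minus wild type, against 0.019 over all probe sets. By limma 2 genes fell, mrp10 and rsm1, and 1 rose, rsm23, which is 3 of 48 where 18.2% of all probe sets passed (8.42% lower and 9.8% higher). No member passed at a fold change above 1.5, against 3.16% of all probe sets. Unadjusted p-values were below 0.05 for 1727 of all 4880 probe sets and for 9 of the 48. For 47 of the 48 genes the 95% interval lay within 1.5-fold either way, against 88.4% of all probe sets. The groups did not overlap for 8 genes in the lower direction and 9 in the higher, where 17.6% and 23.3% of all probe sets did not.

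mrp10, which encodes mS37, a small protein of the small subunit that in budding yeast is held by disulphide bonds, had the largest difference in the set. It read -0.33, -0.61 and -0.45 in set3Δ with LatA, against 0.13, 0.11 and -0.017 in wild type with LatA. Every set3Δ array was below every wild-type array, and mrp10 fell by 0.54, or 1.45-fold (SE 0.0832, 95% interval -0.74 to -0.34, limma adjusted p = 0.0126). The adjusted p was 0.0586 without wild-type LatA replicate 2 and 0.0579 with the gene's own variance. With DMSO it read 0.017, -0.048 and -0.22 in set3Δ, against 0.33, 0.42 and 0.35 in wild type, a difference of -0.45 (limma adjusted p = 0.136; 0.0178 when all 12 arrays were fitted together). The order of its 4 groups was therefore set3Δ with LatA lowest, then set3Δ with DMSO, then wild type with LatA, then wild type with DMSO, and only the middle pair overlapped. Over the 12 arrays mrp10 spanned 1.03 log2 units, the widest of the 48 genes and wider than 82.2% of all probe sets. mrp4, which is separated from mrp10 by 2 protein-coding genes in the RefSeq order, had a difference of 0.16 with LatA (limma adjusted p = 0.107), opposite in sign.

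rsm23 read 0.0043, 0.0021 and 0.067 in set3Δ with LatA, against -0.11, -0.19 and -0.23 in wild type with LatA. With DMSO it read -0.012, 0.053 and 0.034 in set3Δ and -0.017, 0.025 and -0.0021 in wild type. The 3 wild-type LatA arrays were thus below all 9 others, and rsm23 rose by 0.20 in set3Δ relative to wild type with LatA (SE 0.0489, limma adjusted p = 0.0388). rsm10 had a like arrangement, with 0.23, -0.064 and 0.063 in set3Δ and -0.069, -0.27 and -0.33 in wild type, both with LatA, and a difference of 0.30 that did not pass (limma adjusted p = 0.0810). mrp7 (0.18, with a limma adjusted p just over the limit of 0.05), mrpl3 (mL44, 0.18), mrp4 (0.16) and mrpl40 (0.14) completed the 6 highest. In the other direction rsm1 read -0.19, -0.21 and -0.24 in set3Δ with LatA, against 0.022, 0.017 and -0.062 in wild type with LatA, and fell by 0.21 (limma adjusted p = 0.0276). When 1 array was left out, the rsm23 call held only without wild-type LatA replicate 1 and the rsm1 call only without wild-type LatA replicate 3, with adjusted p-values up to 0.122 and 0.0979. mrpl28 (-0.21), mrpl44 (-0.21), mrpl51 (-0.19) and mrpl23 (-0.18) completed the 6 lowest, and none of them passed.

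**Figure D3:**
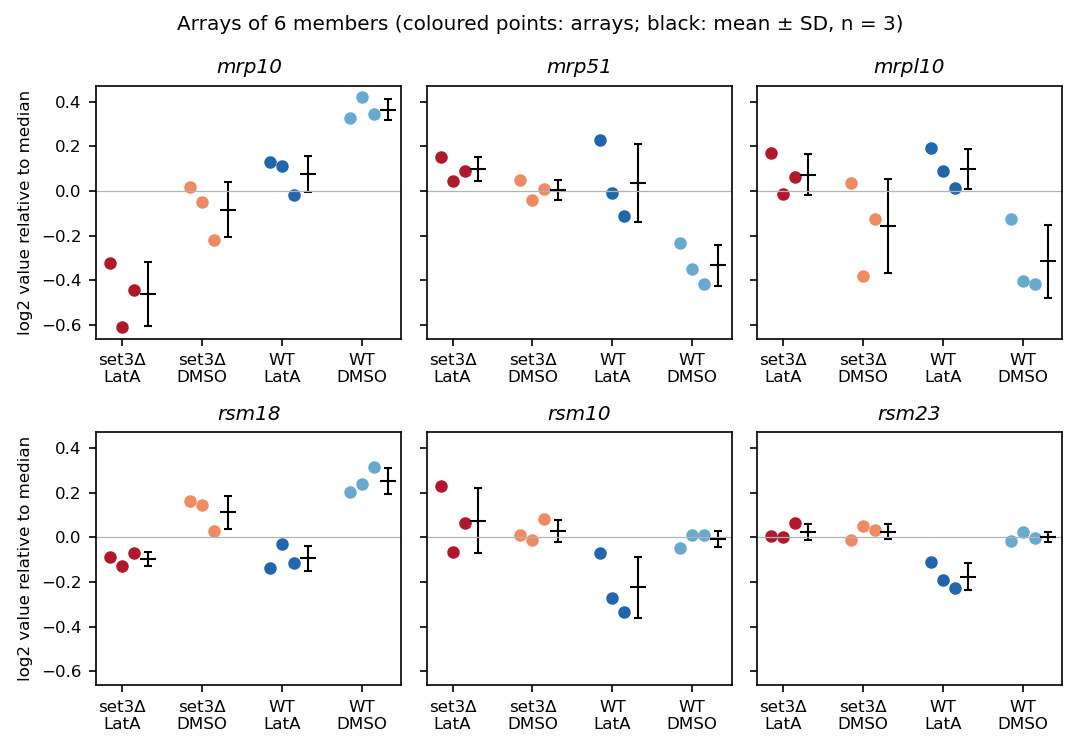
Log2 value relative to the probe set median on each array for 6 genes, by group, with the group mean and SD (n = 3 arrays) in black. mrp10 is lowest in set3Δ with LatA and highest in wild type with DMSO, mrp51 and mrpl10 are lowest in wild type with DMSO, and rsm10 and rsm23 are lowest in wild type with LatA.

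With DMSO no member passed the limma test between set3Δ and wild type, where 0.164% of all probe sets did (0.123% with the fold limit). Unadjusted p-values were below 0.05 for 9 genes, against 1111 of all 4880 probe sets. The median difference was -0.065 against -0.013 over all probe sets, with 33 of 48 negative. It was -0.076 without set3Δ DMSO replicate 2, -0.12 without replicate 1 and -0.021 without replicate 3, so its size depended on which array of that group was used. mrp10, mrp20, rsm27, mrpl31 (mL60), mrpl22 (uL22m) and mrpl17 had the 6 lowest differences, -0.45, -0.36, -0.27, -0.26, -0.22 and -0.22. The groups did not overlap except for mrpl17, which read -0.18, 0.071 and -0.066 in set3Δ, against 0.026, 0.27 and 0.19 in wild type. rsm1 came next at -0.22. mrp20 read -0.0085, -0.0037 and -0.45 in set3Δ, against 0.088, 0.25 and 0.28 in wild type, so 1 set3Δ array was far below the other two. mrp51 had the highest difference, 0.34 (SE 0.0662, limma adjusted p = 0.140), followed by mrpl16, mrpl8, mrps16 (bS16m), mrpl10 and mrpl4 (uL29m) at 0.16 to 0.17. Groups did not overlap for 15 genes in the lower direction and 2 in the higher, against 18.3% and 11.2% of all probe sets (17 of 48 in all, against 29.5%). This comparison shares its wild-type DMSO arrays with the wild-type LatA response.

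Differences between the strains were mostly negative for proteins of mitochondrial origin: 11 of the 13 genes were lower in set3Δ with LatA and 11 with DMSO, with medians of -0.11 and -0.20. For the 34 genes with a bacterial counterpart the numbers were 19 with LatA and 21 with DMSO, and the medians -0.020 and -0.044. Of all 4880 probe sets 2183 were lower with LatA and 2573 with DMSO. By the test 2 of the 13 passed with LatA, mrp10 lower and rsm23 higher, and none with DMSO. The 2 classes were not compared by a test. The strains also differed in genes for the M mating type. In the study's strain list the set3Δ strain with these markers is of type h+ and the wild-type strain with these markers is of type h-, and it is not stated which strains were hybridized. Of 7 M-cell probe sets 4 fell in set3Δ with LatA and 1 with DMSO, against 8.42% and 0.164% of all probe sets. The 2 for mfm3 had positive differences in both that did not pass. Of 3 P-cell probe sets map1 fell by 0.62 in set3Δ with LatA (limma adjusted p = 0.0291), and none passed with DMSO, where no unadjusted p was below 0.05. The lowest M-cell probe set, of mfm2, fell by 5.58 on the log2 scale with LatA and fell by 4.62 with DMSO, and the part of this difference in the mitoribosomal values was not tested.

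Among themselves the genes tended to move together over the arrays. Of their 1128 pairs the median Pearson correlation over the 12 arrays was 0.257, against 0.0477 over all pairs of probe sets, with 32.7% of the pairs above 0.5, against 23.8% of all pairs. rsm27 (0.925) and mrpl11 (uL10m, 0.92) followed the mean of the other members most closely, while mrp51 (-0.576), mrpl10 (-0.41) and mrpl16 (-0.396) ran against it. All pairs share the same 12 arrays and 4 groups. The stress score separated the LatA arrays from the wild-type DMSO arrays. Over the 12 arrays its correlation was 0.911 with mrpl10, 0.862 with mrpl16 and 0.818 with mrp51, and -0.92 with rsm18, -0.80 with mrpl25 and -0.75 with mrp10. These genes are extremes of the wild-type LatA response, so high correlations of either sign were built into the choice. Some genes that followed the member mean followed the score less. mrps17 had 0.628 with the mean and 0.0246 with the score, and mrpl44 had 0.827 and -0.352. The part of the stress score in the LatA responses and in the genotype differences was not tested.

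Other genes of mitochondrial translation were read from lists of named genes. Beside their counts stand the shares of all probe sets that passed. These were 43% for LatA in wild type (17.5% higher and 25.5% lower), 12.4% for LatA in set3Δ and 18.2% between the strains with LatA. Of 5 translation factors 2 fell with LatA in wild type: pth1, a peptidyl-tRNA hydrolase, by 0.89 (1.85-fold, limma adjusted p = 0.00585), and fmt1, which formylates the initiator tRNA, by 0.31. None passed in the other comparisons. Of 4 mitochondrial aminoacyl-tRNA synthetases 1 passed, mse1, the glutamyl enzyme, which fell by 0.18 in wild type with LatA. Of 20 genes for mitochondrial RNA handling and translational control, 3 rose and 4 fell in wild type with LatA. mdm28, of the LETM1 family of inner membrane proteins, rose by 0.56 in wild type and by 0.49 in set3Δ, the only gene of this list to pass there. oxa102, which inserts proteins into the inner membrane, fell by 0.56 in wild type, and rpm1, an exoribonuclease, fell by 0.52. ppr8, a pentatricopeptide repeat protein, rose by 0.45. In LatA treated cells 4 of the 20 were higher in set3Δ than in wild type: ppr2 by 0.36, cbp6, which in budding yeast acts in cytochrome b translation, by 0.28, mtg1, a GTPase, by 0.21 and mtf1, a mitochondrial transcription factor, by 0.19. bot1, of these 20, also stands among the next 8. Of 8 mitoribosomal genes whose names escape the naming rule 1 passed, SPCC777.17c, which fell by 0.47 in set3Δ relative to wild type with LatA (limma adjusted p = 0.00830). The mitochondrially encoded atp8 and atp9, subunits of the ATP synthase, differed by -0.97 and -0.89 in wild type with LatA and did not pass, with standard errors of 0.605 and 0.583.

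Cytosolic ribosomal protein genes and respiratory genes served for comparison. The 128 cytosolic ribosomal probe sets had medians of -0.056 for LatA in set3Δ and -0.055 for LatA in wild type, with 127 and 112 of them negative. In wild type 15 fell and none rose by the test, or 11.7%, against 43% of all probe sets. Unadjusted p-values were below 0.05 for 26 of them, against 2610 of all 4880 probe sets. The cytosolic medians between the strains were -0.012 with LatA and -0.012 with DMSO. The 43 respiratory chain and ATP synthase genes, chosen by symbol, mostly had positive differences where the mitoribosomal genes mostly had negative ones. Their median was 0.12 for LatA in set3Δ (40 positive) and 0.16 for LatA in wild type (37 positive). In wild type 16 rose and 2 fell by the test, or 41.9%, against 43% of all probe sets (17.5% higher and 25.5% lower). For LatA in set3Δ 2 of the 43 rose and none fell, against 12.4% of all probe sets. None of the 128 cytosolic probe sets passed there. No test was run between these gene groups.

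**Figure D4:**
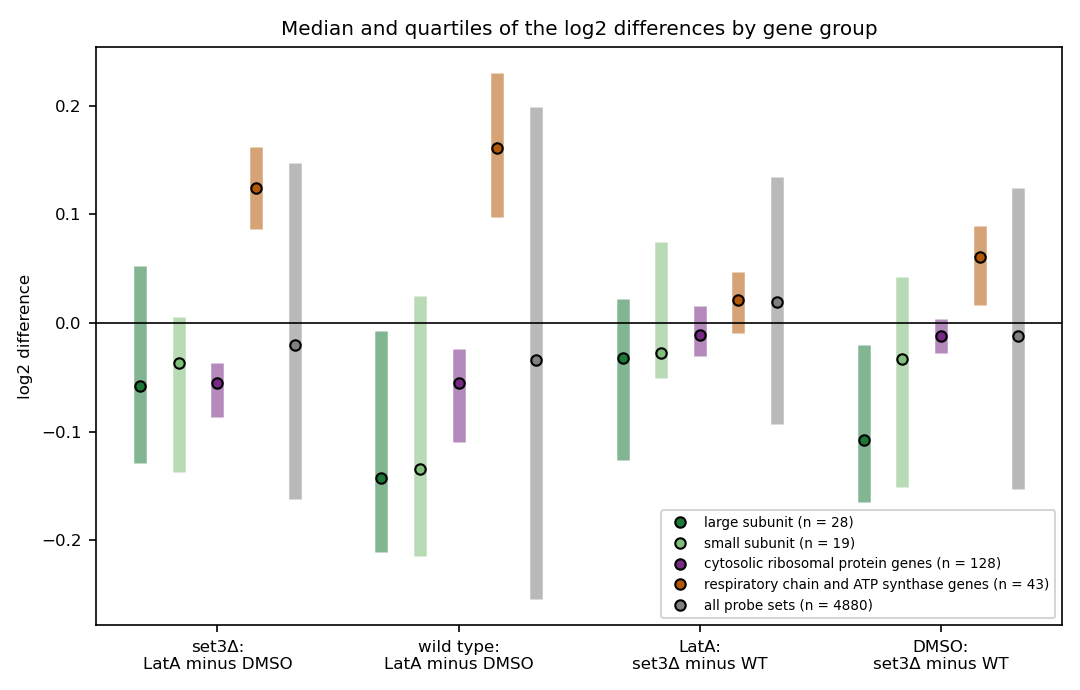
Median (point) and quartiles (bar) of the log2 differences in 4 comparisons for large-subunit and small-subunit genes, cytosolic ribosomal protein genes, respiratory chain and ATP synthase genes and all probe sets. In both LatA responses the medians of the mitoribosomal and cytosolic ribosomal genes are below 0 and that of the respiratory genes is above 0.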

How the data were processed

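Total RNA of 12 cultures was measured on Affymetrix Yeast Genome 2.0 arrays. The authors normalized the arrays with RMA in GeneSpring GX, and the deposited values are log2 intensities, each probe set centred on its median over the 12 arrays, as the values themselves show. No source used here states the annotation version. Because the values are centred, signal over background could not be judged, and dim probe sets were kept; the number of arrays, 3 per group, limits the precision.

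Each pair of groups (6 arrays) was fitted with limma 3.58.1 in R 4.3.3 (lmFit and eBayes), and the difference between the LatA responses with all 12 arrays. P-values were adjusted by Benjamini-Hochberg over 4880 probe sets. A gene was called at an adjusted p below 0.05, and a second count also required a fold change above 1.5. Replicates are biological by their labels, so differences were judged against the spread between these cultures, with variances moderated across probe sets. Any spread between isolates of a strain is not covered, since the labels do not give their number.

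Named genes are those called at a fold change above 1.5, the 6 highest and 6 lowest differences in a comparison, those running against the median in both LatA responses, up to 4 per further list, and set3. Also named, after their values were seen, were the remaining genes called at any fold and those that best followed or opposed the other members. The genes and lists were chosen with earlier results of these data known. The script was tested on simulated data. 19 probe sets on the array matched several genes; none of the 48 did. Alternatives were the fit of all arrays, a replicate block, unmoderated variances, array weights, arrays centred on their median, other limits and leaving out each array or rsm1. Sequences and promoter motifs were not analysed here.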

Additional observations from a re-analysis of the deposited data

How the results depend on the processing

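No member changed the sign of a called difference under any alternative run. For the 48 genes, the count called in the wild-type LatA response (14) was 7 with the replicate block, 8 with unmoderated variances, 24 with array weights, 9 with arrays centred on their median, 2 at an adjusted p below 0.01 and 25 below 0.1; 8 passed at a fold change above 1.2, and the median was -0.098 with array weights. In set3Δ (1 gene) it was 5 in the fit of all 12 arrays, 0 with the replicate block, with unmoderated variances, without rsm1 and below 0.01, 4 with centred arrays and 7 below 0.1. Between set3Δ and wild type with DMSO (0) it was 5 in the fit of all 12 arrays and 3 with array weights. With LatA (3) it was 1 with unmoderated variances, 9 with array weights, 5 with centred arrays, 0 below 0.01 and 8 below 0.1, with 1 gene past the fold limit under array weights and 1 at 1.2-fold, and a median of -0.083 with array weights. For the difference between the responses (0) array weights gave 5 genes and a median of 0.0055.

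Leaving out 1 array gave 5 (without wild-type DMSO replicate 3) to 17 (without replicate 1) called genes in the wild-type response, with medians of -0.16 to -0.13, and 5 to 8 without any of the 5 arrays other than DMSO replicate 1. In set3Δ it gave 0 to 4 (4 without DMSO replicate 3), with medians of -0.086 to -0.013. Between the strains it gave 0 with DMSO (medians -0.12 to -0.021) and 0 (without wild-type LatA replicate 2) to 2 with LatA (medians -0.063 to -0.0043), and 0 for the difference between the responses (medians 0.034 to 0.11). No gene passed the fold limit, except 1 between the strains with LatA without set3Δ LatA replicate 1. The causes were not tested.

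Samples were not paired by replicate number, except in the replicate block. Deviations of same-numbered arrays correlated at -0.497 to 0.562 (median 0.021) over 18 pairs, 7 of them above 0.1. Those of different-numbered arrays correlated at -0.696 to 0.547 (median -0.042) over 36 pairs, 8 of them above 0.1. Such overlapping ranges cannot decide whether the numbers pair the samples. The replicate block left 3 called genes between the strains with LatA. Weights were estimated without full convergence in 3 fits. The filter on dim probe sets was not run, since centred values hold no level.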
